A study of Mus musculus with 2 samples.

Results

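The Hox genes were examined in Dicer-deficient (KO) and Dicer-intact (WT) mouse mesenchymal stem cells, 39 genes in all among the 23227 gene symbols of the authors' deposited table. Members were all symbols made of Hox, a cluster letter from a to d and a paralogue number, which gave 11 genes of cluster A, 10 of cluster B, 9 of cluster C and 9 of cluster D. Of these, 20 had a mean over both genotypes of at least 20 normalised reads and are called tested here. They were all 11 genes of cluster A and all 9 of cluster C, whereas none of the 10 genes of cluster B and none of the 9 of cluster D reached that level. Hoxc13, Hoxa13 and Hoxc12, the tested genes with the highest paralogue numbers, were lower in KO by 18.1-fold, 8.90-fold and 4.27-fold. Of these, Hoxc12 missed the adjusted p thresholds of both tests described below. Hoxa9 was 2.11-fold higher in KO, a call that was lost without either of 2 single libraries. The other 16 tested genes passed neither the threshold for higher nor that for lower.

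The study compared polyA-selected messenger RNA of adult mesenchymal stem cells, also labelled fibroblasts, with and without Dicer, the enzyme that releases mature microRNAs from their hairpin precursors. The KO sample was Dicer -/- and the WT sample Dicer f/f, the floxed but intact allele. Both were immortalised monoclonal mouse lines grown in the same serum-containing medium and lysed before confluence, and the sources used here do not say how the allele was deleted or how old the donor animals were. Each genotype was 1 line, so genotype and clone cannot be told apart.

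Hox genes encode homeodomain transcription factors that lie in 4 clusters, and a gene's paralogue number gives its position in its cluster, from the 3' end with low numbers to the 5' end with high numbers. In the embryo, low-numbered genes act in the hindbrain and neck, high-numbered genes in the lower trunk, the distal limb and the genital tract, and cultured mesenchymal cells are known to keep a Hox profile of the body site they came from. The clusters also hold microRNA genes of the miR-10 and miR-196 families, whose messenger RNA targets include Hox genes themselves.

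The authors deposited 1 mean per genotype, of read counts divided by DESeq size factors, and the whole reads of 2 libraries per genotype were recovered from these means. The KO libraries held 15718369 and 14969532 reads in genes, and the WT libraries held 15369250 and 14135422. They are called the deeper and the shallower library of a genotype after these totals. The labels list 1 sample per genotype, so the spread between libraries may be technical, and p-values measure only that spread. Normalised Dicer1 reads were 573 and 557 in the deeper and shallower KO libraries, against 804 and 943 in the WT libraries, a ratio of 0.647 (95% counting interval 0.60 to 0.698) that did not pass the threshold. Values were per gene, so a deleted exon could not be seen. Summed markers of haematopoietic, endothelial, epithelial and pluripotent cells reached at most 15.9 normalised reads in any library. Of 8 mesenchymal markers, 7 were tested and Thy1 had 0 reads in every library. By the rule given below 1 of the 7, Col1a1, was lower in KO with a ratio of 0.432, against 8.56% of all tested genes. The part of these markers in the Hox results was not tested. In bulk RNA, fewer cells of a type and less RNA per cell cannot be told apart.

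Calls of higher or lower in KO required a ratio of means, KO over WT, of at least 2 or at most 0.5 and an exact 95% interval of that ratio from counting error that excluded 1. By this size rule 1 of 20 tested Hox genes was higher, against a background of 8.92% of all 11710 tested genes, and 3 of 20 were lower, against 8.56%. By the authors' deposited table, at an adjusted p of 0.1, none of the 20 was higher (background 5.56%) and 2 were lower (5.34%), Hoxa13 and Hoxc13, while 4 had an unadjusted p under 0.05, as did 19.4% of all tested genes. In limma on log2 values, with an adjusted p threshold of 0.05, none was higher (4.61%) and the same 2 genes were lower (4.14%), while 5 of 20 had an unadjusted p under 0.05, as did 29.0% of all tested genes. Hoxa7, Hoxa9 and Hoxc10 were the 3 Hox genes with both KO values above both WT values (background 30.4%), and Hoxa13, Hoxc12 and Hoxc13 the 3 with both KO values below (28.8%). The median log2 ratio was -0.01 over the tested Hox genes and -0.01 over all tested genes. A ratio between 0.75 and 1.33 was found for 12 of the 20, and for 51.0% of all tested genes.

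**Figure D1:**
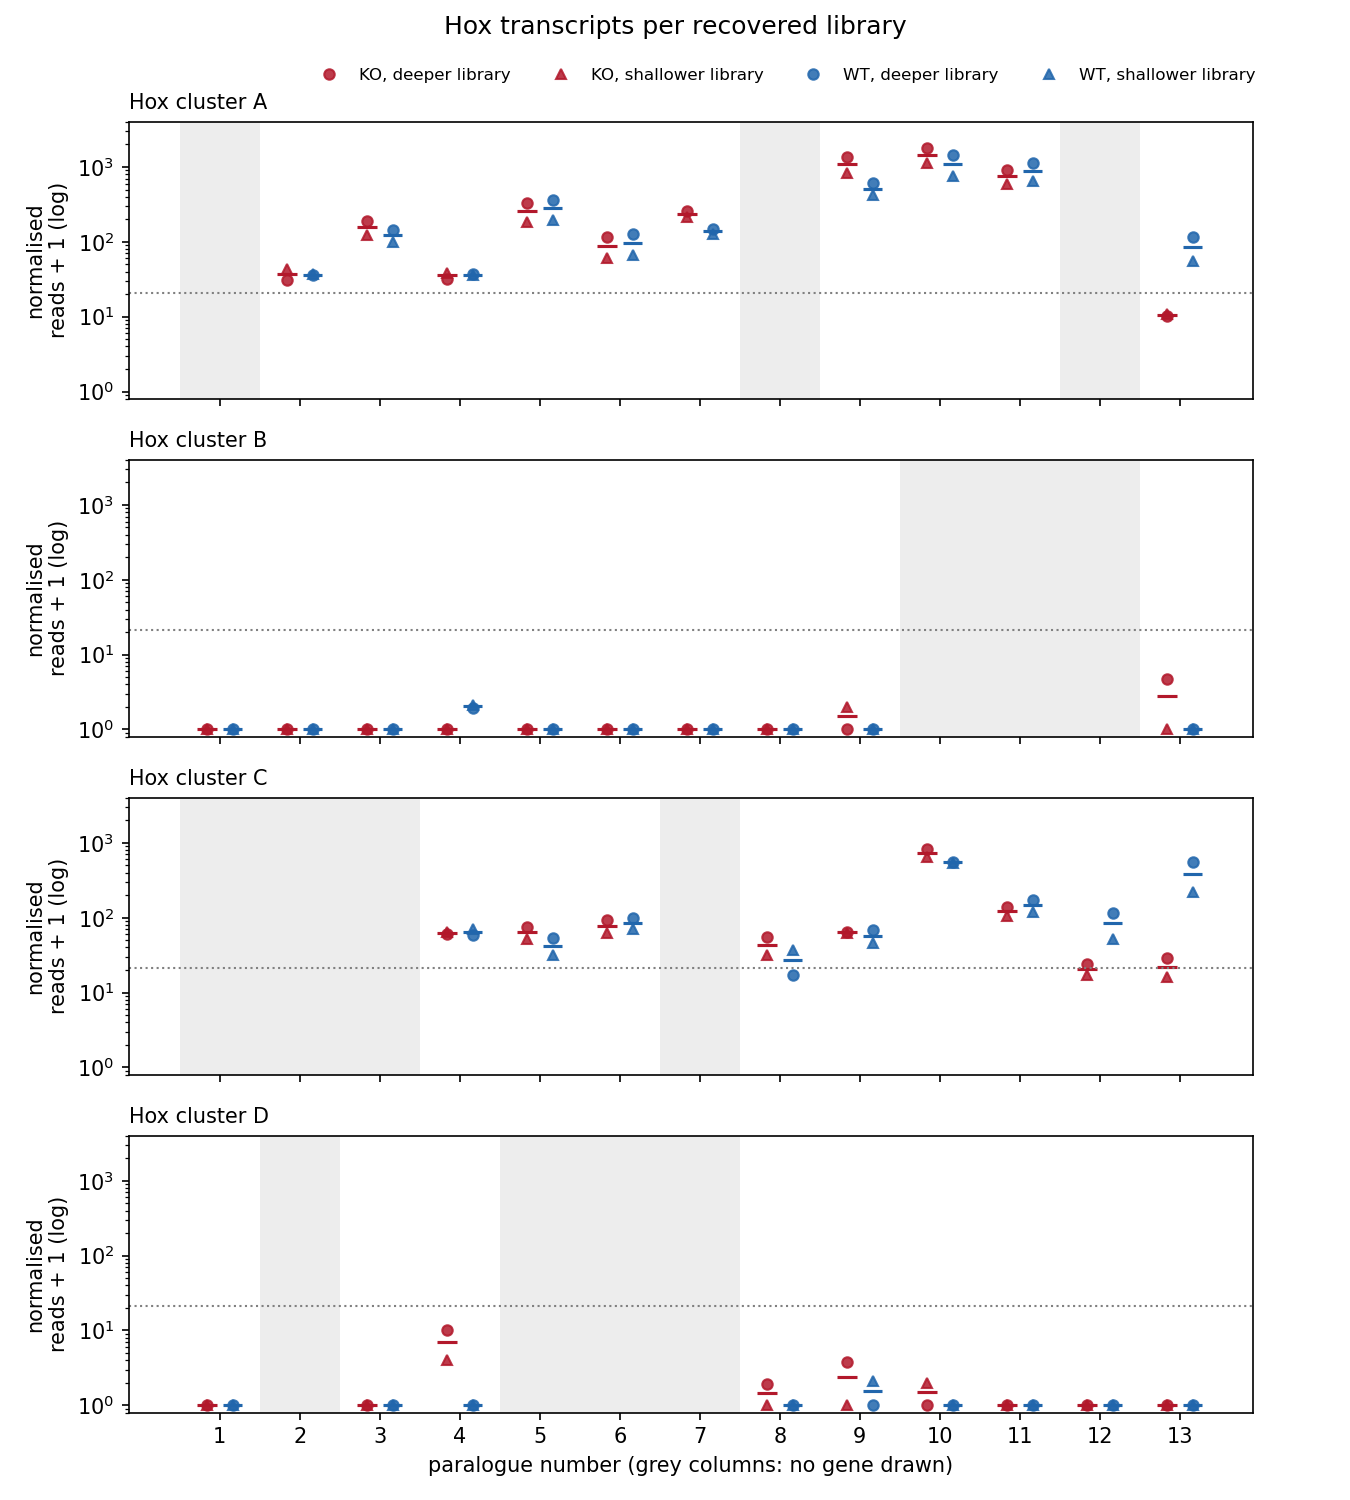
Normalised reads of 38 of the 39 Hox genes (log axis, 1 added) by paralogue number, with 1 panel per cluster, KO in red on the left and WT in blue on the right. Circles are the deeper and triangles the shallower library, bars the deposited means, and the dotted line the mean of 20 reads needed for testing. Genes of clusters A and C were read in both genotypes, those of clusters B and D had at most 10 reads in a library, and the KO points of Hoxc12, Hoxa13 and Hoxc13 lay below the WT points.

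Transcripts came almost wholly from clusters A and C in both genotypes. Cluster A (chromosome 6, minus strand) held 8820 reads in KO and 6606 in WT, and cluster C (chr15:102921103-103036852 on GRCm38, plus strand) held 2528 in KO and 2806 in WT. Cluster B on chromosome 11 had 5 reads in KO and 2 in WT over all its genes, and cluster D on chromosome 2 had 18 in KO and 1 in WT. Among the 19 genes of clusters B and D, 12 had no read in any library, 7 of cluster B and 5 of cluster D. A count of 0 allows up to 3 reads, which equal between 2.76 and 3.36 normalised reads depending on the library.

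The 7 remaining genes of these clusters were below the level for testing, and Hoxd4, a gene of neck vertebrae and hindbrain, had the most reads among them. It had 10 and 3 reads in the deeper and shallower KO libraries and 0 and 0 in the WT libraries. The exact counting interval of its ratio had a lower limit of 2.81. The adjusted p in the authors' deposited table was 0.554. Hoxd3 and Hoxd4 share 388 exon bases in the annotation used, and how the authors' counting assigned reads from them is not given. The other 6, Hoxb13, Hoxb4, Hoxb9, Hoxd8, Hoxd9 and Hoxd10, had at most 4 reads in any library.

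The summed level of cluster A was 5090 and 3270 normalised reads in the deeper and shallower KO libraries, against 4203 and 2518 in the WT libraries. That of cluster C was 1354 and 1051 in KO, against 1689 and 1182 in WT. For both clusters the KO and WT ranges overlapped. The ratio of means was 1.24 for cluster A (log2 ratio 0.31) and 0.838 for cluster C (log2 ratio -0.26). Leaving out the deeper KO library turned the log2 ratio of cluster A to -0.04, leaving out the shallower WT library turned it to -0.01, and leaving out the deeper WT library turned that of cluster C to 0.03, so no direction is given for either cluster. Without Hoxc10, its most abundant gene, the log2 ratio of cluster C was -0.92. The remaining sum includes Hoxc13 and Hoxc12, with means of 384 and 83.1 normalised reads in WT, against 21.3 and 19.5 in KO. Both are called lower, so this value partly repeats those calls.

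Grouped by paralogue number, the anterior genes (1 to 3) had a summed ratio of 1.18, the central genes (4 to 8) of 1.13 and the posterior genes (9 to 13) of 1.12. Leaving out the deeper KO or the shallower WT library turned the log2 ratio of the central genes to -0.11 or -0.06 and that of the posterior genes to -0.17 or -0.16, so no direction is given for these sums. Within the posterior genes the ratios ran in opposite directions. Summed paralogue 9 had a ratio of 2.01, paralogue 10 of 1.33, paralogue 11 of 0.837, paralogue 12 of 0.234 and paralogue 13 of 0.0697. For the sums of paralogues 10 and 11 the KO and WT library ranges overlapped, so no direction is given for them. Of the KO mean of 1147 for paralogue 9, Hoxa9 made 1082. All genes numbered 1 to 11 together had 5341 normalised reads in KO and 4245 in WT, a ratio of 1.26. Their sum was 6397 and 4285 in the deeper and shallower KO libraries, against 5109 and 3381 in the WT libraries. These ranges overlapped, so no direction is given. Paralogues 12 and 13 together had 52.1 in KO and 552 in WT, a ratio of 0.0944. The split of numbers 12 and 13 from the others was not planned. The 3 tested genes of numbers 12 and 13 are those called lower, so their sum repeats those calls. Per library, the sum of paralogues 12 and 13 was 63.5 and 40.8 in KO, against 784 and 321 in WT. The log2 ratio of that sum was -3.40, and without the deeper WT library it was -2.62.

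**Figure D2:**
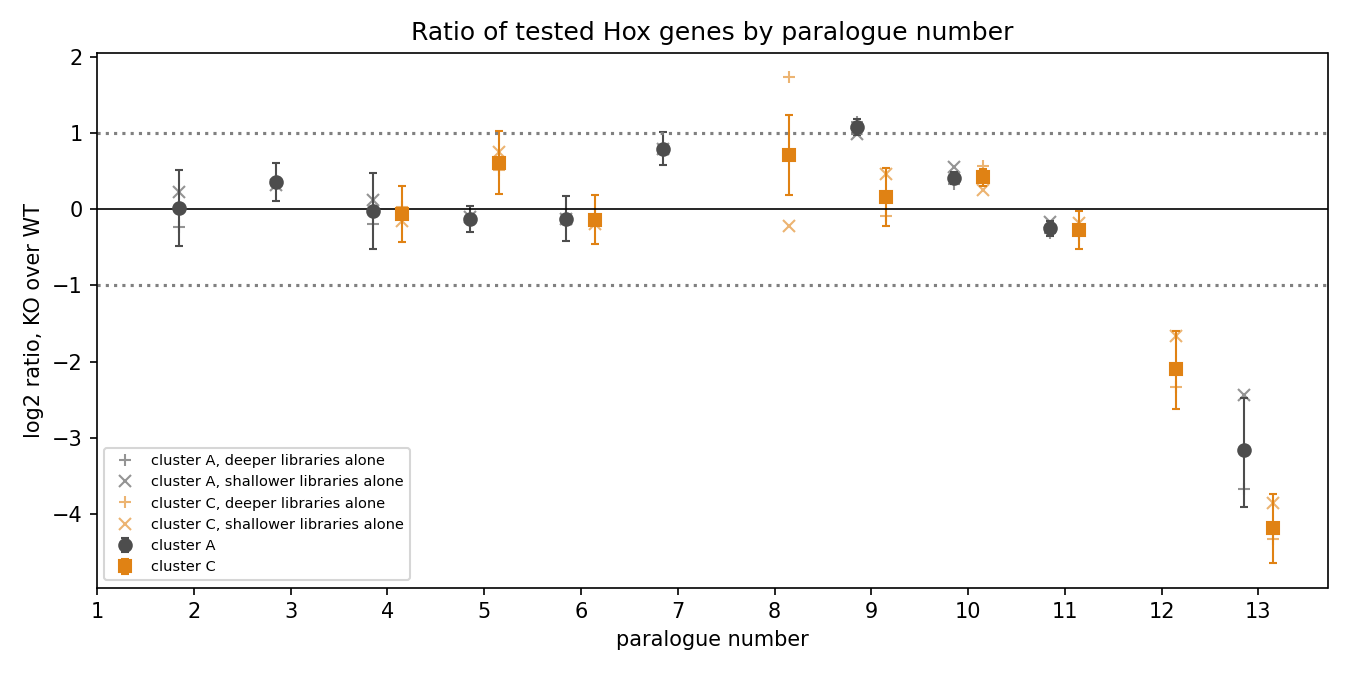
Log2 ratio of KO over WT for 19 of the 20 tested Hox genes against paralogue number, for clusters A (grey circles) and C (orange squares), with bars for the 95% counting interval, crosses for the deeper or shallower libraries alone, and dotted lines at a 2-fold change. The genes up to number 11 lay between -0.28 and 1.08, while Hoxc12, Hoxa13 and Hoxc13 lay at -2.09, -3.15 and -4.17.

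Hoxc13, required in mouse for hair shafts and nails through its hair keratin targets, was the Hox gene with the lowest ratio. It lies at the 5' end of its cluster (chr15:102921103-102928814). It had 27.6 and 14.9 normalised reads in the deeper and shallower KO libraries, against 551 and 216 in the WT libraries. Both KO values were far below both WT values. The ratio was 0.0554 (counting interval 0.0401 to 0.0748), and the adjusted p was 0.0263 in limma and 0.0502 in the authors' deposited table. The call was kept without any 1 library, and the ratio without the deeper WT library was 0.0983.

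Hoxa13, a gene of the digits and of the genital and urinary tracts, ends cluster A on the same side (chr6:52257694-52260880). It had 9.20 and 9.95 normalised reads in the KO libraries, against 117 and 53.8 in the WT libraries, and the groups did not overlap. The ratio was 0.112 (0.0669 to 0.179), and the adjusted p was 0.0412 in limma and 0.0543 in the authors' deposited table. On leaving out the deeper WT library the ratio was 0.178, and the gene was still called lower. The 10 raw reads in each KO library are few, and because reads carried no molecular identifiers, the interval covers the error of counting reads and no more.

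Hoxc12, the neighbour of Hoxc13 and like it a gene of the hair follicle (chr15:102936757-102938609), had 23.0 and 15.9 normalised reads in the KO libraries, against 116 and 50.4 in the WT libraries. Again both KO values were below both WT values. The ratio was 0.234 (0.162 to 0.332), and 0.386 without the deeper WT library. Hoxc12 missed the thresholds of both tests, with an adjusted p of 0.271 in the authors' deposited table and of 0.0975 in limma. These 3 genes were also among the 4 Hox genes whose WT libraries differed at least 2-fold from each other, the fourth being Hoxc8, as did 9.12% of all tested genes. No tested Hox gene differed 2-fold between its KO libraries, against 8.91% of all tested genes.

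The genes just before them in the clusters were not called. Hoxa11, which patterns the forearm, the kidney and the uterus, had 920 and 583 normalised reads in KO, against 1138 and 654 in WT, and a ratio of 0.839. Hoxc11, expressed in the developing hindlimb, had 137 and 103 in KO, against 174 and 118 in WT, and a ratio of 0.826. For both genes the KO and WT ranges overlapped. The antisense transcript Hoxa11as, no member of the group, had 237 and 227 normalised reads in KO, against 583 and 365 in WT, a ratio of 0.489 that was called lower by the size rule. The call was lost with scaling to total reads and on leaving out the shallower KO or the deeper WT library. Its adjusted p in the authors' deposited table was 0.191. Of 2287 exon bases of Hoxa11, 800 lie in exons of this antisense gene. Since the strand of the authors' counting is not given, reads of the 2 genes from that shared stretch cannot be told apart.

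Hoxa10, needed for the uterus and the lumbar spine, and Hoxc10, a gene of the hindlimb and lumbar spinal cord, had nearly the same ratio. Hoxa10 had 1802 and 1123 normalised reads in KO, against 1435 and 763 in WT, a ratio of 1.33 with overlapping ranges. Hoxc10 had 823 and 648 in KO, against 556 and 545 in WT, a ratio of 1.34, and here both KO libraries were above both WT libraries. The 2 ratios were less alike within like-ranked libraries, 1.26 for Hoxa10 and 1.48 for Hoxc10 in the deeper alone. In the shallower libraries alone they were 1.47 and 1.19. Neither gene was called by any of the rules. Hoxc5 and Hoxc10 share 166 exon bases in the annotation used, so part of the reads of either may come from the other.

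Hoxa9, known for its part in blood progenitors and leukaemia, was the tested Hox gene called higher. It had 1339 and 825 normalised reads in the deeper and shallower KO libraries, against 607 and 418 in the WT libraries, and the groups did not overlap. The ratio was 2.11 (1.96 to 2.28), and the adjusted p was 0.116 in limma and 0.279 in the authors' deposited table. The call rested on single libraries, since the ratio was 1.61 when the deeper KO library was left out and 1.78 when the shallower WT library was. Its paralogue Hoxc9, a gene of the thoracic segments, had 63.5 and 61.7 normalised reads in KO, against 67.5 and 44.8 in WT, and a ratio of 1.11.

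Hoxa7, a gene of the thoracic segments and the neighbour of Hoxa9, had 256 and 217 normalised reads in KO, against 147 and 126 in WT. Both KO values were above both WT values. The ratio of 1.73 (1.49 to 2.02) was under the 2-fold threshold, with an adjusted p of 0.415 in the authors' deposited table and of 0.12 in limma. Leaving out any 1 library gave ratios between 1.59 and 1.88.

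Hoxc8, which specifies thoracic vertebrae and motor neurons of the forelimb, depended most on the library. It had 54.3 and 30.8 normalised reads in KO, against 16.4 and 35.9 in WT, so the shallower libraries were ordered the other way from the deeper ones. Its ratio of 1.63 was not called. It became 2.08 when the shallower KO library was left out and 2.60 when the shallower WT library was, both called higher, and the shallower libraries alone gave 0.860.

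Hoxa7, Hoxa9 and Hoxc8 are published targets of miR-196, so the microRNA and its sites in these messages are shown here. Mature miR-196a comes from Mir196a-1, between Hoxb13 and Hoxb9 (chr11:96265187-96265208, plus strand), and from Mir196a-2, between Hoxc10 and Hoxc9 (chr15:102973365-102973386, plus strand). Mir196b lies within the annotated span of Hoxa9 (chr6:52230129-52230150, minus strand). Mir10a lies upstream of Hoxb4 (chr11:96317186-96317208, plus strand) and Mir10b within the annotated span of Hoxd4 (chr2:74726074-74726096, plus strand). The mature sequences are from RefSeq on GRCm38.p6, 5' to 3', with the seed (bases 2 to 8) in capitals. Both miR-196 forms share 1 seed and both miR-10 forms another.
miR-196a-5p: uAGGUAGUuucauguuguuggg
miR-196b-5p: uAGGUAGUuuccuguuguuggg
miR-10a-5p: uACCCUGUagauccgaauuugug
miR-10b-5p: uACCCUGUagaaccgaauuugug

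The site complementary to the miR-196 seed, ACTACCT on the message strand, was found in the annotated 3' UTR of 9 of 39 Hox genes. Among tested genes it was found in 6 of 20 Hox genes and in 6.98% of all genes with a UTR. Hoxa7 held 4 sites, Hoxc8 held 2 and Hoxa9, Hoxa4 and Hoxa5 held 1 each. A window of each of the published targets is given from GENCODE M21 transcripts, message strand 5' to 3', with the site in capitals. The windows lie at chr6:52215210-52215234 (Hoxa7, minus strand), chr6:52223900-52223924 (Hoxa9, minus strand) and chr15:102992973-102992997 (Hoxc8, plus strand) on GRCm38. The last line is the stretch of the Hoxb8 UTR (chr11:96284888-96284909, plus strand) that pairs best with miR-196a, with paired bases in capitals. Counting only A with U and G with C, it pairs at 21 of 22 positions and at 6 of the 7 seed positions. This is why the motif search did not list it. The remaining base is a G opposite a U of the seed, a G:U pair that was not counted.
Hoxa7: cctactactagccctaaACTACCTa
Hoxa9: aagcaaaaggaaagaaaACTACCTt
Hoxc8: tgacactcacaactctaACTACCTg
Hoxb8: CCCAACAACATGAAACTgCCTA

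Hoxb8, whose message is known in mouse to be cut at this site by miR-196, had no read in any library, so it gave no comparison here. Of the 6 published miR-196 targets, 3 were tested. By the size rule 1 of the 3, Hoxa9, was called higher, against a background of 8.92%. That call was lost without the deeper KO or the shallower WT library, and neither limma nor the authors' deposited table made it. Over the 6 tested Hox genes with a site the median log2 ratio was 0.41, and the ratios included 2.11 for Hoxa9, 1.73 for Hoxa7, 1.63 for Hoxc8, 0.981 for Hoxa4 and 0.916 for Hoxa5. Over all tested genes the median was 0.05 with a site and -0.00 without. A match of these letters is a description, not a site shown to act, and mature microRNAs were not measured. The messenger RNA library held few reads of Mir196b, 12.9 and 6.97 normalised reads in KO, against 14.5 and 4.48 in WT, which overlapped, and the 5 other microRNA genes of the clusters had at most 1 read in any library.

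The miR-10 site, ACAGGGT, was in 2 of 20 tested Hox genes, Hoxa3 among them, and in 15.1% of all tested genes with a UTR. Hoxa3, needed for the thymus and parathyroid, had 189 and 121 normalised reads in KO, against 145 and 97.5 in WT, with a ratio of 1.28 and overlapping ranges. The let-7 site, CTACCTC, shares 6 bases with the miR-196 site and was in 3 of 20 tested Hox genes, Hoxa11 and Hoxc11 among them, and in 10.7% of all. The median log2 ratio was -0.25 over those 3 Hox genes, against 0.15 over all tested genes with that site. The site of miR-615, GGCTCGG, whose gene lies in cluster C, was in 0 of 20 tested Hox genes and in 3.0% of all.

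The remaining tested genes moved by less than 2-fold, and their KO and WT ranges overlapped. Hoxa2, which sets the identity of the second pharyngeal arch, had 29.4 and 41.8 normalised reads in KO, against 34.7 and 35.9 in WT. Hoxa4, a gene of the cervical vertebrae, had 31.3 and 37.8 in KO, against 35.7 and 34.8 in WT. Their ratios, 1.01 and 0.981, were the closest to 1 of all tested Hox genes.

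Hoxa5, required for lung and sternum, had 330 and 184 normalised reads in KO, against 364 and 197 in WT, a ratio of 0.916. Hoxa6, a gene of the thoracic vertebrae, had 117 and 59.7 in KO, against 127 and 65.0 in WT, a ratio of 0.918. In these genes the deeper library was higher than the shallower one by more than the genotypes differed. The same order of libraries in both genotypes, deeper above shallower, was seen for 14 of 20 tested Hox genes and for 38.4% of all tested genes, and the reverse order for 2 of 20 and 35.4%. Totals were not matched between genotypes, and whether the libraries pair was not tested.

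Of the lower-numbered genes of cluster C, Hoxc4, of the neck and upper thorax, had 58.9 and 63.7 normalised reads in KO, against 57.8 and 70.6 in WT, with a ratio of 0.954. Hoxc5 had 74.5 and 50.7 in KO, against 52.1 and 30.3 in WT, with a ratio of 1.52, and without the deeper WT library it was called higher at 2.07. Hoxc6, of the thoracic vertebrae, had 92.0 and 61.7 in KO, against 98.3 and 70.6 in WT, with a ratio of 0.910. All 3 genes had overlapping ranges.

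Genes with the same number in clusters A and C could be set side by side for 7 numbers. The log2 ratios of the A and C genes lay within 0.1 of each other for 4 of the 7, numbers 4, 6, 10 and 11. Counting error can be wider than that, with ratio intervals of 0.694 to 1.39 for Hoxa4 and 0.739 to 1.23 for Hoxc4. The ratios lay further apart for number 5 (0.916 for Hoxa5, 1.52 for Hoxc5) and number 9 (2.11 for Hoxa9, 1.11 for Hoxc9). Number 13 was low in KO in both clusters, and its ratios also lay further apart (0.112 for Hoxa13, 0.0554 for Hoxc13). Their counting intervals overlapped, at 0.0669 to 0.179 and 0.0401 to 0.0748. Across the 7 pairs Pearson's r of the log2 ratios was 0.94, and 0.28 over the 6 pairs without number 13. This is a description across genes that share the same libraries, and how often other pairs of genes lie as close was not tested.

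Levels of different genes were compared as normalised reads per kilobase of the longest annotated transcript. The highest level was that of Hoxa10 in both genotypes, 570 per kilobase in KO and 429 in WT, which put it at the 88.0th percentile of detected genes in KO and the 83.9th in WT. In KO it was followed by Hoxc10 (385), Hoxa9 (335) and Hoxa11 (329), whose library ranges overlapped. In WT it was followed by Hoxa11 (392), Hoxc10 (288), Hoxa9 (159) and Hoxc13 (156). The WT library range of Hoxa11 overlapped those of Hoxa10 and Hoxc10, while both Hoxa10 values lay above both Hoxc10 values, and the ranges of Hoxa9 and Hoxc13 overlapped. Hoxc13 was 19th of the 20 in KO, with 8.64 per kilobase, and 5th in WT, Hoxc12 was 18th in KO and 8th in WT, and Hoxa13 was last in KO and 13th in WT. Cluster A made 73.5% of the summed level per kilobase in KO and 66.6% in WT, and paralogues 12 and 13 made 1.38% in KO and 12.4% in WT. The order depends on the length used. By mean transcript length Hoxa10 still led in both genotypes, but Hoxa9 stood above Hoxc10 in both. Of the 5 highest genes, 4 in KO and 5 in WT were the same by either length.

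**Figure D3:**
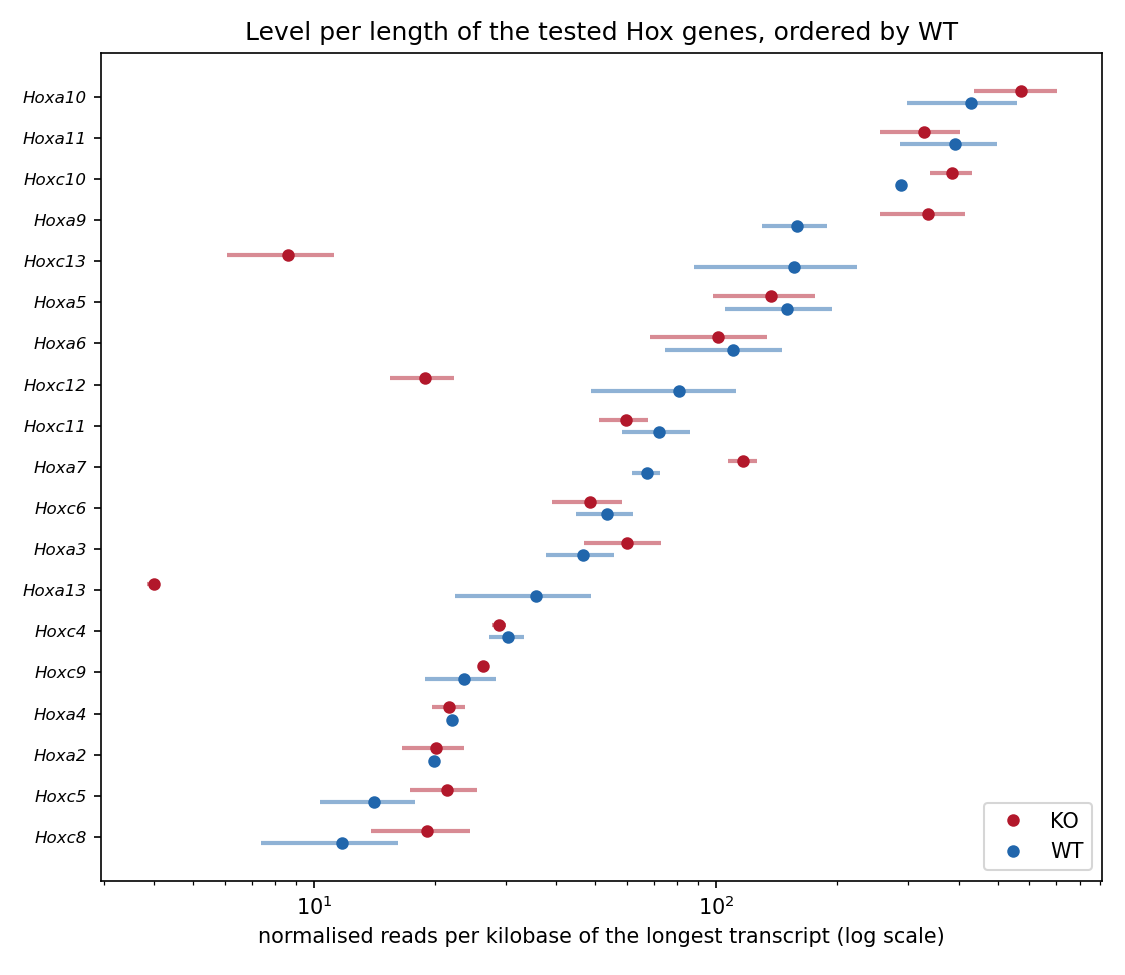
Normalised reads per kilobase of the longest transcript (log axis) for 19 of the 20 tested Hox genes, from the highest in WT at the top, with KO in red above WT in blue. Points are the means and lines join the values of both libraries. Hoxa10 leads in both genotypes, and Hoxc13, Hoxc12 and Hoxa13 stand apart with 8.64, 18.9 and 4.0 per kilobase in KO, against 156, 80.6 and 35.6 in WT.

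Hox proteins bind DNA with homeodomain cofactors of the TALE class, and of 9 listed genes 8 were tested. By the size rule 2 were higher and 1 was lower, against 8.92% and 8.56% of all tested genes. The authors' deposited table called the same 3 genes (background 5.56% higher and 5.34% lower). In limma 1 was higher (4.61%) and none was lower (4.14%). Pbx3 had 1265 and 1072 normalised reads in KO, against 325 and 259 in WT, a ratio of 4.0 (3.65 to 4.39) with a limma adjusted p of 0.0146. Pbx2 had 1139 and 854 in KO, against 494 and 352 in WT, a ratio of 2.36, with an adjusted p of 0.0191 in the authors' deposited table. Meis2, which acts in the proximal limb and heart, had 77.3 and 48.8 in KO, against 170 and 154 in WT, a ratio of 0.390 with an adjusted p of 0.0742 in the authors' deposited table. In these 3 genes the KO and WT libraries did not overlap and the call was kept without any 1 library. Meis1, with a ratio of 1.47, was not called, and the median log2 ratio of the list was 0.49, against -0.01 over all tested genes.

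Polycomb complexes keep silent Hox genes repressed. Of 11 tested genes of Polycomb repressive complex 2, 1 was called higher by each of the 3 rules, Phf19 (background 8.92%, 5.56% and 4.61%). It had 1024 and 1248 normalised reads in KO, against 410 and 391 in WT. Its product helps to recruit the complex, and its ratio was 2.84 (2.61 to 3.08). The catalytic subunits Ezh2 and Ezh1 had ratios of 1.30 and 1.96 and were not called. Leaving out the shallower KO library gave 3 higher genes (1313 of all 11739 tested), and leaving out the deeper WT library gave 2 (1326 of 11710). The median log2 ratio was 0.46, and for 7 of the 11 both KO libraries were above both WT libraries, against 30.4% of all tested genes. The same order was seen for 4 of 8 tested TALE cofactors and 6 of 18 tested genes of Polycomb repressive complex 1. It was also seen for 8 of 15 tested trithorax group genes and 5 of 9 tested genes next to the clusters, described below.

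Of 18 tested genes of Polycomb repressive complex 1, 1 was called higher by each of the 3 rules (background 8.92%, 5.56% and 4.61%). This was Cbx7, a subunit that reads methylated histone tails. It had 375 and 378 normalised reads in KO, against 175 and 151 in WT, a ratio of 2.31. The count was 2 without the shallower KO library or without the deeper WT library, and the median log2 ratio was 0.26. Of 15 tested trithorax group genes, which oppose Polycomb and maintain active Hox genes, none was called by any of the 3 rules. An unadjusted p under 0.05 in limma was found for 6 of the 15, against 29.0% of all tested genes. In the authors' deposited table it was found for 1 of the 15, against 19.4%. On leaving out the shallower KO library 1 trithorax gene was higher, and the median log2 ratio of the list was 0.22. Mll1, a histone methyltransferase of Hox promoters, had 1986 and 1763 normalised reads in KO, against 2940 and 2676 in WT, a ratio of 0.668. Of 8 listed upstream regulators 3 were tested, and Egr2, an activator of Hox genes in the hindbrain, was higher by the size rule (background 8.92%). It had 146 and 59.7 normalised reads in KO, against 18.3 and 10.1 in WT, with a ratio of 7.25 that was 4.20 without the deeper KO library, and an adjusted p of 0.181 in the authors' deposited table. Ezh1, Ezh2, Mll1, Meis1 and Egr2 were chosen after their values were seen.

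**Figure D4:**
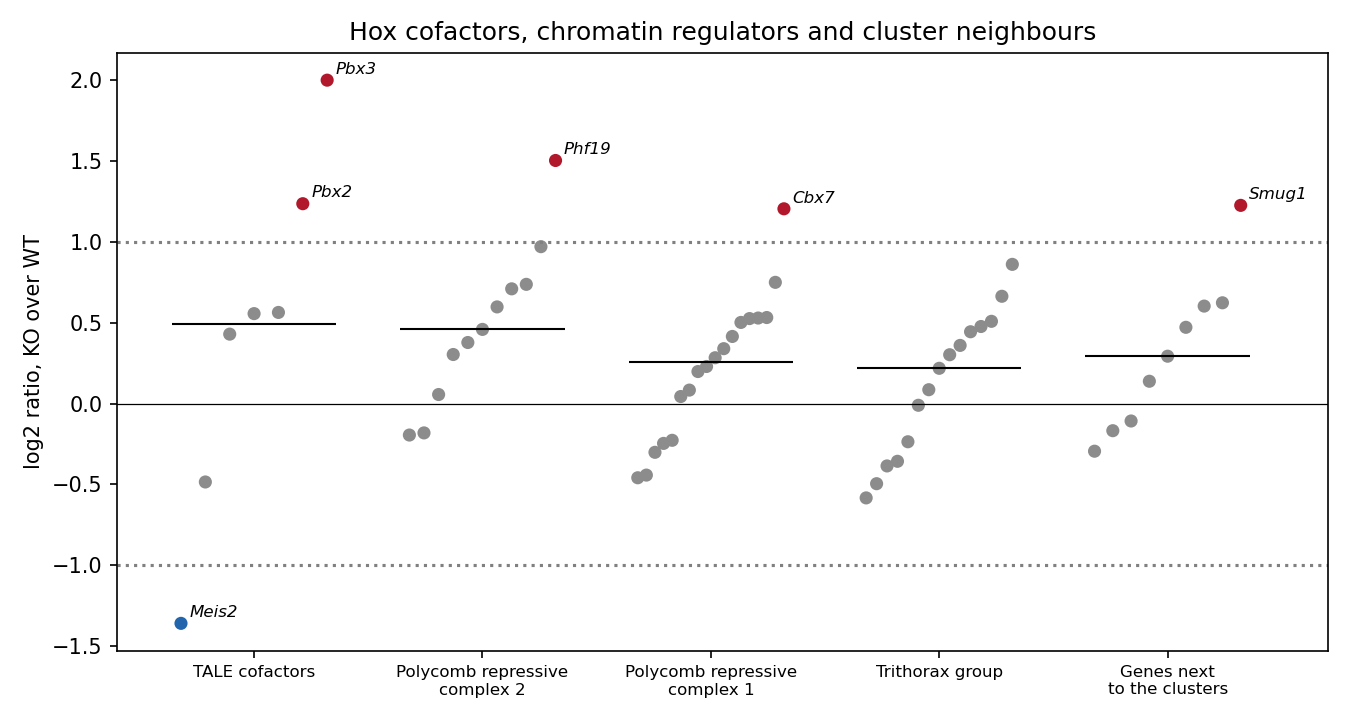
Log2 ratio of KO over WT for tested genes of 5 lists (all but 1 cofactor), in order within each list, with red for higher and blue for lower by the size rule, grey for neither, a black line at each list's median and dotted lines at a 2-fold change. Pbx3 and Pbx2 were higher and Meis2 lower among the cofactors, Phf19, Cbx7 and Smug1 were higher in their lists, and no trithorax gene passed.

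The genes next to the clusters were read for comparison, and of 14 listed 9 were tested. Smug1, a DNA repair glycosylase gene 116 kilobases from Hoxc4, was called higher by all 3 rules (background 8.92%, 5.56% and 4.61%). It had 635 and 734 normalised reads in KO, against 282 and 303 in WT, a ratio of 2.34. On the other side of cluster C, 199 kilobases from Hoxc13, Calcoco1 had a ratio of 1.23 with overlapping libraries. Beyond Hoxa13, Evx1 at 52.6 kilobases had no reads, and Hibadh at 285 kilobases had a ratio of 0.891. Skap2, on the other side of cluster A, had a ratio of 1.54. Beside cluster D, Evx2 at 8.75 kilobases from Hoxd13 had no reads. Mtx2 and Lnp, 60.7 and 88.9 kilobases from that cluster, were read in every library, with ratios of 1.39 and 0.928. Beside cluster B, Ttll6 had no reads, and Skap1 had 0 and 0.995 normalised reads in KO, against 3.86 and 7.85 in WT.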

How the data were processed

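PolyA RNA was sequenced as paired reads from 1 labelled sample per genotype. Mouse build mm9, DESeq 1.10.1 and TopHat 1.4.0 are named in the submitters' processing notes. The read counter, the gene models and the strand setting were not given in the sources used here. The deposited table holds, per the file headers, as a signal per gene the mean normalised count of conditions A and B, their fold (ratio B over A), its log2 value, and the authors' p-value and adjusted p-value. Condition A was taken to be WT and condition B to be KO because the table's title names them in that order. All directions depend on this.

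Whole reads of 2 libraries per genotype were recovered from the deposited means. For 100% of 16350 genes above 0 in KO and of 16386 in WT, exactly 1 pair of whole numbers gave the mean within 1e-08. The design had assumed 1 library per genotype, so the size rule was kept, and the test between libraries is an alternative: limma 3.58.1 (R 4.3.3) with a trend on log2(normalised reads + 1), with Benjamini-Hochberg adjustment over all 11710 tested genes. A fold on that scale understates changes of low genes. Clopper-Pearson intervals came from scipy 1.17.1 (Python 3.11.15) and cover counting error only. Scripts were tested on simulated data with known changes.

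Of the 23227 symbols, 5924 had no reads. Lengths, positions and 3' UTRs came from GENCODE M21 on GRCm38, not the authors' build, with 22773 symbols (98.0%) matched and a 3' UTR for 11318 tested genes. A gene's longest UTR among its protein-coding transcripts was searched on the message strand. The text names every tested Hox gene but 1, whose own values, like those of 1 cofactor gene, are not reported here, lower Hox genes with at least 5 reads in 1 genotype, up to 4 genes of each other list called by both the size rule and the authors' adjusted p, and, where they help the account, published targets, cluster RNAs and neighbours whatever their call; genes outside this are marked. The members and lists were chosen with earlier results of these data known. Alternatives were total-read scaling, leaving out each library, like-ranked libraries alone, other thresholds and filters, other transcript lengths, and leaving out the most abundant gene of a sum.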

Additional observations from a re-analysis of the deposited data

How the results depend on the processing

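Hoxa13, Hoxc12 and Hoxc13 were called lower without any 1 library, with like-ranked libraries alone, with total-read scaling, at 1.5-fold and 4-fold thresholds and without a filter on the mean. At a mean of at least 100 reads 1 gene was left, Hoxc13. With that filter 622 of 9894 genes were lower. Among all tested genes, 2092 of 11710 were lower at 1.5-fold and 391 at 4-fold. From 1094 of 11683 to 1297 of 11739 were lower when 1 library was left out. The count of 1 higher Hox gene ranged from 0 to 2 when 1 library was left out, and without the shallower WT library the 1 gene was Hoxc8, not Hoxa9. It was 2 in the deeper libraries alone, 0 in the shallower alone, 4 at a 1.5-fold threshold, 0 at 4-fold, 2 without a filter, where Hoxd4 was added, and 0 by the authors' adjusted p and by limma. Among all tested genes, from 875 of 11682 to 1326 of 11710 were higher when 1 library was left out. The deeper libraries alone gave 1198 of 11709 and the shallower alone 1025 of 11655. There were 2030 of 11710 at 1.5-fold, 392 at 4-fold and 1459 of 17303 without a filter. The log2 ratio of Hoxa9 lost the call at 0.69, 0.83 and 0.98, without the deeper KO library, without the shallower WT library and in the shallower libraries alone. Hoxc5 gained a call at 1.05 without the deeper WT library, and Hoxc8 at 1.05 and 1.38 without the shallower KO or WT library and at 1.73 in the deeper libraries alone. Without Hoxc10 the summed log2 ratio of cluster C was -0.92, which partly repeats the calls of Hoxc13 and Hoxc12. By mean transcript length cluster A made 78.8% of the summed level in KO and 71.7% in WT. Higher genes of Polycomb repressive complex 2 numbered 2 with total-read scaling, from 1 to 3 when 1 library was left out and 2 in the deeper libraries alone. Those of complex 1 ranged from 1 to 2 and of the trithorax group from 0 to 1 when 1 library was left out, with 1 trithorax gene in the deeper libraries alone. Lower upstream regulators ranged from 0 to 1 when 1 library was left out, and numbered 1 in the deeper libraries alone. The cause of these shifts was not tested. Total-read scaling moved the median log2 ratio of all tested genes by 0.06, and no named ratio that had been called reversed under any of these settings. No paired analysis was possible because the labels list 1 sample per genotype and give no replicate numbers. With 2 recovered libraries per genotype, precision for genes of a few reads, such as Hoxa13 in KO, was limited by counting.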
